A study of Mus musculus with 12 samples.

Results

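The comparison described here set tumors grown from AsPC-1 cells against tumors grown from BxPC-3 cells while the mice received arsenic trioxide (ATO). It rested on 6 of the 12 libraries of the series, AsPC-1 ATO replicates 1 to 3 and BxPC-3 ATO replicates 1 to 3. The 6 control libraries, 3 for each line, served to ask which line differences appeared, widened or vanished under ATO. AsPC-1 and BxPC-3 are established human lines of pancreatic ductal adenocarcinoma, and the series' design text says that they were grafted orthotopically, that is, into the pancreas of a mouse. The labels give the genotype of every sample as WT. For the dose and schedule of ATO, the treatment of control mice, and the strain, age and number of the animals, the record is not given in the sources used here. Replicates are numbered but not tied to animals, and p-values therefore cover only the spread between these libraries, which may be technical. Of 30832 genes listed in at least 1 of the deposited tables, 23445 stood in both, and 15542 of these had at least 1 FPKM in 3 or more of the 6 ATO libraries and were tested. The tables state no unit. Their values move in steps that fit FPKM, reads scaled by gene length and by a constant of the library, and are called so here. All genes carry human identifiers that start with ENSG. The files do not pair them with names and no human name table was at hand, so genes are described as groups, and 4 are given by identifier.

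AsPC-1 cells came from the ascites of a patient, whereas BxPC-3 cells came from a primary tumor. ATO is an arsenic compound that binds thiol groups of proteins and is used against acute promyelocytic leukemia. In cells, arsenic can be joined to glutathione and exported, and glutathione also protects membrane lipids from the iron-dependent peroxidation that kills cells by ferroptosis. An enzyme of glutathione conjugation, glutathione S-transferase theta 2, is the subject of the series title and was not analysed here for want of names.

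Reads and gene lengths were inferred from the steps of the FPKM values, as the smallest whole numbers that account for them. These reads summed to 11154058 to 19076511 per library over the genes in both tables. Within a group, 2 libraries differed by a median of 0.161 to 0.273 log2 units per gene in AsPC-1 ATO and 0.162 to 0.319 in BxPC-3 ATO, on log2(FPKM + 1) after the libraries were rescaled to each other. Between the lines under ATO the 9 pairs of libraries differed by 0.596 to 0.786. BxPC-3 ATO replicate 1 lay 0.319 and 0.287 from the other 2 libraries of its group but 0.175 and 0.204 from BxPC-3 control replicates 1 and 2. AsPC-1 ATO replicate 1 lay 0.273 and 0.240 from its group, and 0.314, 0.153 and 0.183 from AsPC-1 control replicates 1, 2 and 3. The library labelled BxPC-3 control 3 lay 0.157 to 0.322 from the 6 AsPC-1 libraries and 0.569 to 0.674 from the other 5 BxPC-3 libraries, so its profile goes against its label. It is in no test among ATO libraries. The control comparison and the test of change between control and ATO are given without it and, beside that, with it as labelled. Without it, a fit that also leaves out BxPC-3 control replicate 1 or 2 holds 1 BxPC-3 control library. Counts from such a fit rest on that single library for this group. Because tumors were sequenced whole, fewer cells of a type and less RNA per cell cannot be told apart, and markers of stromal or other cell types could not be checked without names.

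**Figure D1:**
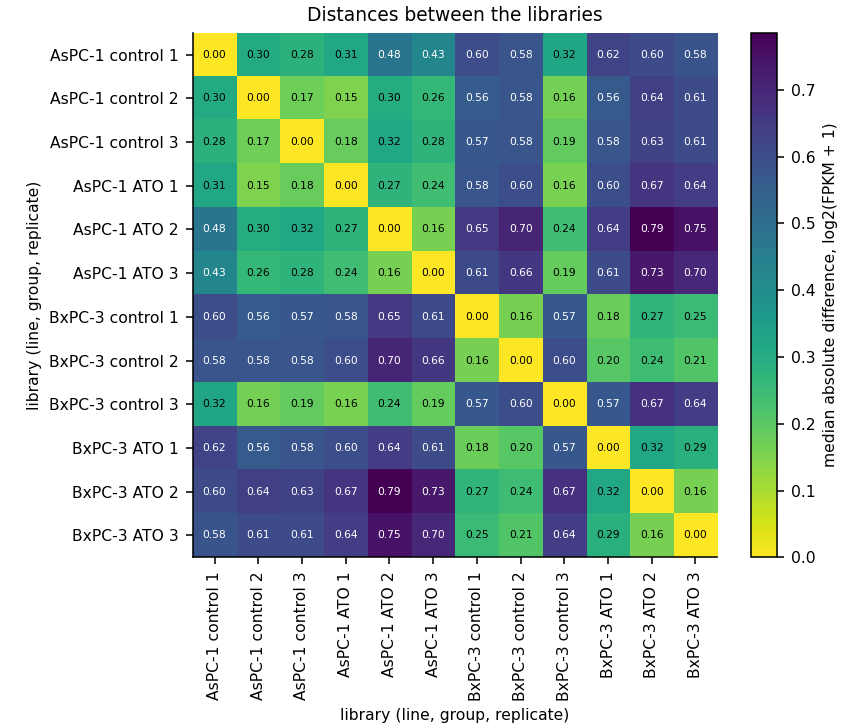
Median absolute difference per gene between each pair of the 12 libraries, in log2(FPKM + 1) after rescaling, over 16633 genes; both axes list the libraries by line, group and replicate. The 3 AsPC-1 and the 3 BxPC-3 ATO libraries differ from each other by 0.596 to 0.786, and the library labelled BxPC-3 control 3 lies 0.157 to 0.322 from the AsPC-1 libraries.

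Under ATO the lines differed in most of the genes tested. In limma with Benjamini-Hochberg adjustment, 9097 of 15542 genes passed an adjusted p of 0.05, which is 58.5%. They comprised 4526 genes (29.1%) in which AsPC-1 was the higher line and 4571 (29.4%) in which BxPC-3 was. The median size of the difference among these genes was 1.04 on the log2(FPKM + 1) scale, against 0.65 over all genes tested. A difference of at least 2-fold on that scale was found in 2528 genes toward AsPC-1 and in 2290 toward BxPC-3. At 8-fold or more the counts were 183 and 172, and at 32-fold or more 25 and 28. In 10064 genes (64.8%) all 3 libraries of one line lay above all 3 of the other. The rescaling set the median difference of all tested genes to -0.0071. On the deposited scale that median was 0.18, and the split was 5375 toward AsPC-1 and 3684 toward BxPC-3, so the split depends on the scaling. Fits without 1 library gave other splits. Without AsPC-1 ATO replicate 2, 2734 genes passed toward AsPC-1 and 3682 toward BxPC-3, and 2742 and 3629 did without AsPC-1 ATO replicate 3. The counts were 3802 and 2745 without BxPC-3 ATO replicate 2, and 3740 and 2619 without BxPC-3 ATO replicate 3. These fits tested 14222 to 14368 genes, because the filter still asked for 3 libraries. Genes on only in the line left with 2 libraries were thus left out, which tilts the split against that line in advance. Whether the split depends on single libraries cannot be read from these fits. Because it depends on the scaling, no line is described as the higher one on balance.

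The called share rose slowly with the level of the gene. It was 56.4% of 3499 genes with a mean under 2 rescaled FPKM over the 6 libraries, 59.4% of 5738 genes from 5 to under 20 FPKM, and 61.3% of 1327 genes from 20 to under 100 FPKM. Among 161 genes at 100 FPKM or more, 112 passed, which is 69.6%, with 56 higher in each line. The median size of the line difference was 1.16 log2 units in these 161 genes and 0.63 in those under 2 FPKM. The scale adds 1 to each value and so understates differences of low genes.

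Among the genes listed for both lines, a small set was on in one line and nearly silent in the other. Genes listed for one line only are outside this count and are described further below. Of those, 67 listed for AsPC-1 and 86 listed for BxPC-3 had at least 5 FPKM in every ATO library of their line. Under ATO, 32 genes had at least 5 FPKM in each AsPC-1 library and under 0.1 FPKM in each BxPC-3 library, and 42 genes showed the reverse. By the same limits, 23 of the 32 and 32 of the 42 met them in the control libraries too, where the one labelled BxPC-3 control 3 was not counted. The smallest control difference among them was 2.31 log2 units for the genes on in AsPC-1 and 2.45 for those on in BxPC-3, each toward the same line as under ATO. The line differences of these genes were thus found in control tumors as well, each of at least the size given.

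The gene with the largest difference toward AsPC-1 was ENSG00000250920, with an inferred length of 830 bases. Its rescaled FPKM were 380.3, 528 and 615 in the AsPC-1 ATO libraries and 0.0490, 0.250 and 0.0508 in the BxPC-3 ATO libraries, where it rested on 1, 4 and 1 inferred reads. The groups were far apart, at 508 ± 119 against 0.117 ± 0.116 (SD, n = 3 each), and did not overlap, which the choice of the gene required. The difference was 8.81 log2 units (SE 0.21, limma adjusted p = 6.76e-07). In control libraries it was 384, 558 and 362 FPKM in AsPC-1 and 0.251 and 0.103 in BxPC-3 replicates 1 and 2, a difference of 8.51 (SE 0.24). The change of the difference with ATO was 0.30 (SE 0.32, limma adjusted p = 0.622). In the library labelled BxPC-3 control 3 it was at 402 FPKM, within the AsPC-1 range.

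Toward BxPC-3 the largest difference was that of ENSG00000165272, with an inferred length of 2950 bases. Its rescaled FPKM were 637, 1083 and 1111 in the BxPC-3 ATO libraries and 0.196, 0.224 and 0.0470 in the AsPC-1 ATO libraries. The groups did not overlap, which the choice of the gene required, at 943 ± 266 against 0.156 ± 0.0951 (SD, n = 3 each). The difference was -9.63 log2 units (SE 0.24, limma adjusted p = 8.39e-07), and -9.02 (SE 0.23) in control libraries, where BxPC-3 replicates 1 and 2 had 681 and 709 FPKM. The change of this difference with ATO was -0.61 (SE 0.31, limma adjusted p = 0.360). The library labelled BxPC-3 control 3 had 0.259 FPKM, as the AsPC-1 libraries did.

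**Figure D2:**
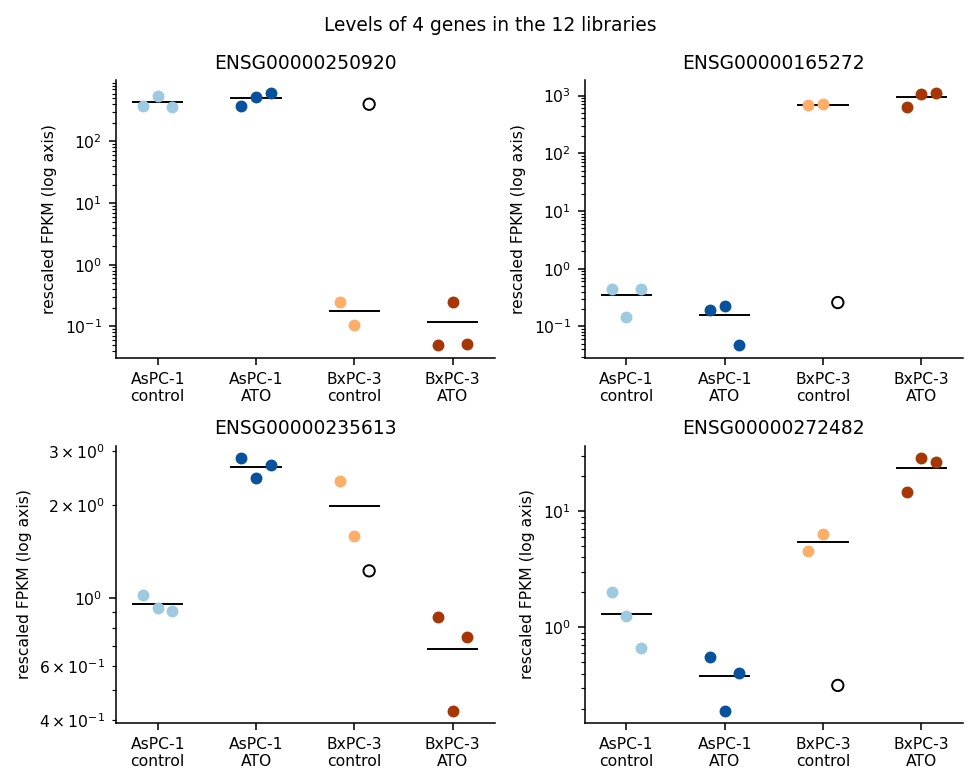
Rescaled FPKM (log axis) of 4 genes in the 12 libraries by group; filled points are libraries, lines are group means, and the open circle is the library labelled BxPC-3 control 3, which is not in the mean. ENSG00000250920 and ENSG00000165272 separate the lines in control and ATO tumors alike, ENSG00000235613 has the AsPC-1 libraries below BxPC-3 in control tumors and above them under ATO, and ENSG00000272482 lies apart by more under ATO.

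Genes listed for one line only fall outside the test, since a table lists a gene only where at least 4 of its 6 libraries were above 0. The AsPC-1 table held 3375 genes that the BxPC-3 table did not, with a median of 0.152 FPKM over its ATO libraries, and the BxPC-3 table held 4012 genes that the AsPC-1 table did not, with a median of 0.207. Most were faint. At least 1 FPKM in all 3 ATO libraries was reached by 307 of the AsPC-1 genes and 402 of the BxPC-3 genes, and at least 5 FPKM by 67 and 86. At least 50 FPKM in each of these libraries was reached by 2 genes of the AsPC-1 table and 4 of the BxPC-3 table. Of the 402 BxPC-3 genes, 341 were under 0.1 FPKM in the library labelled BxPC-3 control 3, and 249 of them were listed there at 0.

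Most line differences under ATO were also present in control tumors. Between the control tumors 7600 of 16507 genes (46%) passed in limma, in 1 model of 11 libraries that left out the one labelled BxPC-3 control 3. AsPC-1 was higher in 3788 (22.9%) and BxPC-3 in 3812 (23.1%). With that library as labelled, 0 of 16633 genes passed in limma and 5115 had an unadjusted p under 0.05. Among the 15542 genes tested under ATO, 7223 passed in control, and 5960 passed in both. The shared genes were 65.5% of those called under ATO and 82.5% of those called in control. Of the shared genes 5932 had the same sign and 28 the opposite sign. Across all 15542 genes, which are not independent replicates, the ATO and control differences had a Pearson correlation of 0.878 and a Spearman correlation of 0.816, both fitted on libraries scaled together. The 2 counts of calls do not show that lines differed in more genes under ATO, because the control arm had 2 BxPC-3 libraries and the ATO arm 3. With the control libraries alone, 5986 of 13942 genes passed in limma, 3481 toward AsPC-1 and 2505 toward BxPC-3. The filter of 3 libraries there left out genes on only in the 2 BxPC-3 libraries, so neither this count nor its split is matched to the ATO fit.

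The sizes of the differences depend on which comparison chooses the genes, since passing a test favours genes whose size is large in it. Among the 7223 genes called in control, the median size was 1.01 log2 units in control and 1.04 under ATO, and the difference was larger under ATO in 3580 of them, or 49.6%. Their sign was the same under ATO in 97.2%. Among the 9097 genes called under ATO, the difference was larger in control in 2410, or 26.5%. Over all genes the median size was 0.53 in control and 0.65 under ATO.

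**Figure D3:**
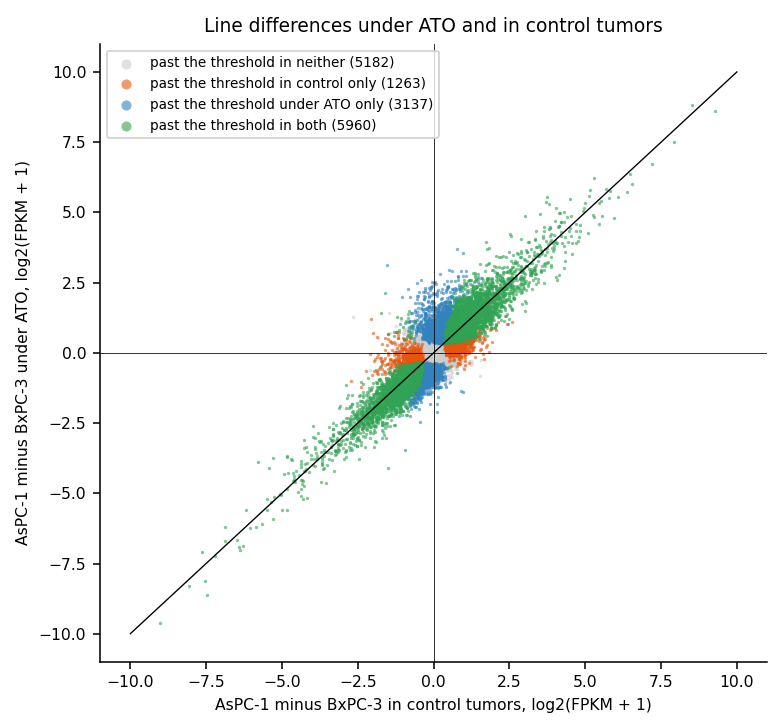
Difference between the lines per gene under ATO (vertical) against the difference in control tumors without the library labelled BxPC-3 control 3 (horizontal), AsPC-1 minus BxPC-3 in log2(FPKM + 1), for 15542 genes coloured by the comparison in which they passed an adjusted p of 0.05 in limma; the diagonal marks equal differences. Of the 5960 genes called in both, 5932 have the same sign and 28 the opposite sign, and the 3137 called under ATO only lie above and below the centre.

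Line differences that appeared under ATO were taken as those called and at least 1 log2 unit under ATO and under 0.5 in control tumors. There were 641, of which 408 were toward AsPC-1 and 233 toward BxPC-3. Their median difference was 1.22 under ATO and 0.29 in control, values that chose them. For the 408 genes the median level was 4.95, 6.77 and 5.68 rescaled FPKM in the AsPC-1 ATO libraries and 2.18, 1.11 and 1.34 in the BxPC-3 ATO libraries. The control libraries lay between, at 2.36, 3.43 and 3.26 in AsPC-1 and 3.14 and 2.32 in BxPC-3 replicates 1 and 2. Against their own controls, the AsPC-1 ATO medians were higher and those of BxPC-3 ATO replicates 2 and 3 lower, while BxPC-3 ATO replicate 1 lay near its controls. The 233 genes had medians of 6.07, 4.10 and 4.85 FPKM in AsPC-1 ATO and 9.71, 14.3 and 14.8 in BxPC-3 ATO. In control libraries they were at 10.5, 6.86 and 7.55 in AsPC-1 and 9.99 and 11.9 in BxPC-3 replicates 1 and 2. The count of genes that appeared was 371 without AsPC-1 ATO replicate 2 and 1016 without BxPC-3 ATO replicate 1, and 1427 with the library labelled BxPC-3 control 3 as labelled.

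A further 114 differences widened, meaning that they passed in both with the same sign and were at least 1 log2 unit larger under ATO. Of these, 81 were higher in AsPC-1 and 33 in BxPC-3, with a median difference of 2.57 under ATO and 1.30 in control, values that chose them. In the 81 genes the median level was 13.0, 18.0 and 13.9 FPKM in AsPC-1 ATO libraries against 6.83, 8.65 and 9.91 in AsPC-1 control, and 2.51, 1.32 and 1.31 in BxPC-3 ATO against 2.94 and 2.62 in BxPC-3 control replicates 1 and 2. In the 33 genes BxPC-3 ATO libraries had medians of 24.0, 40.6 and 45.5 FPKM against 24.7 and 28.8 in BxPC-3 control replicates 1 and 2. AsPC-1 ATO libraries had 5.72, 3.31 and 3.22 against 11.6, 7.92 and 7.24 in AsPC-1 control. The number that widened was 75 without AsPC-1 control replicate 1, BxPC-3 control replicate 1 or BxPC-3 ATO replicate 2, 66 without AsPC-1 ATO replicate 2, and 215 without BxPC-3 ATO replicate 1. It was 317 with a pseudocount of 0.1 and 587 with voom. It was 0 with the library labelled BxPC-3 control 3 as labelled, where no control difference passes.

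By the mirrored limits 204 differences vanished, 102 that had been higher in AsPC-1 and 102 that had been higher in BxPC-3. Another 45 narrowed by at least 1 log2 unit. The classes cover only the 15542 genes tested under ATO, so control differences in other genes could not vanish. In control 7600 of 16507 genes passed, and 7223 of the 15542. The control arm also had 2 BxPC-3 libraries and the ATO arm 3, so whether more differences were gained than lost was not tested. The median difference of the 204 was 1.18 in control and 0.30 under ATO, values that chose them. In the 102 genes higher in AsPC-1 controls, the median level was 18.2, 12.9 and 14.4 FPKM in AsPC-1 control and 5.68 and 6.49 in BxPC-3 control replicates 1 and 2. Under ATO it was 11.8, 7.89 and 8.97 in AsPC-1 and 5.80, 8.61 and 8.33 in BxPC-3. The group medians then overlapped, which the limit of under 0.5 log2 units under ATO favours by itself. In the 102 genes toward BxPC-3 the AsPC-1 libraries had 1.57, 2.40 and 2.15 in control and 3.16, 4.12 and 3.64 under ATO, and BxPC-3 had 6.93 and 5.69 in control replicates 1 and 2 and 5.98, 3.84 and 3.97 under ATO. The 45 that narrowed, 28 toward AsPC-1 and 17 toward BxPC-3, had a median difference of 2.86 in control and 1.54 under ATO, again values that chose them. Without BxPC-3 control replicate 1 the number that vanished was 133. The number that narrowed was 29 without AsPC-1 ATO replicate 2 or BxPC-3 ATO replicate 3, and 24 without BxPC-3 ATO replicate 2. It was 141 with a pseudocount of 0.1 and 290 with voom, and the number that vanished was 360 with voom.

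The 28 genes that passed in both with opposite signs were of low level, with a median of 1.92 FPKM. AsPC-1 was the higher line under ATO in 26 of them and BxPC-3 in 2. The median of the 26 was 0.808, 0.964 and 1.11 FPKM in the AsPC-1 controls and 3.17, 3.53 and 2.72 in AsPC-1 ATO libraries. In BxPC-3 it was 3.62 and 2.26 in control replicates 1 and 2 and 1.85, 0.919 and 1.001 under ATO. This count was the least steady, with 4 genes without BxPC-3 control replicate 1 and 102 without BxPC-3 ATO replicate 1. It was 12 without BxPC-3 ATO replicate 3, 15 without AsPC-1 ATO replicate 2 and 18 without AsPC-1 ATO replicate 3.

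The test of whether a line difference changed with ATO is the line by treatment term, the ATO difference minus the control difference. In limma 0 of 16507 genes (0%) passed an adjusted p of 0.05, the smallest adjusted p was 0.0822, and 2540 genes (15.4%) had an unadjusted p under 0.05. Voom with limma, run on the inferred reads, called 0 of 17366 genes. There 2812 were under 0.05 before adjustment, and the smallest adjusted p was 0.0516. With the library labelled BxPC-3 control 3 as labelled, 0 of 16633 passed in limma and 2503 (15%) had an unadjusted p under 0.05. Of the 2540 genes, 1532 had a term toward AsPC-1 under ATO and 1008 toward BxPC-3. The classes described above therefore hold no gene whose change was called as first fitted. An unadjusted p under 0.05 was found in 459 of the 641 genes that appeared, 98 of the 114 that widened, 151 of the 204 that vanished and 34 of the 45 that narrowed, in classes that the same values define.

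Leaving out 1 library changed this result. Without BxPC-3 ATO replicate 1, 452 of 16297 genes passed the term in limma, 345 above 0 and 107 below 0. All 452 had the same sign in the fit with that library, and 393 had an unadjusted p under 0.05 there. Both fits share all their other libraries, so this agreement is no independent support. Of the 446 that belonged to the genes also tested under ATO, 122 were among the 641 that appeared, 36 widened, 29 vanished, 14 narrowed, 21 turned sign and 224 fell in no class. Without BxPC-3 control replicate 2, where 1 BxPC-3 control library remained, some genes passed too, all above 0. Under a filter that asked for 5 FPKM or more in 3 libraries, 11 of 8710 genes passed, 10 above 0 and 1 below 0. All 11 were among the 452, but this fit too holds every library of the one that gave the 452. Without any one of the other libraries the count was 0, and the genes at an unadjusted p under 0.05 numbered 1150 to 3630.

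**Figure D4:**
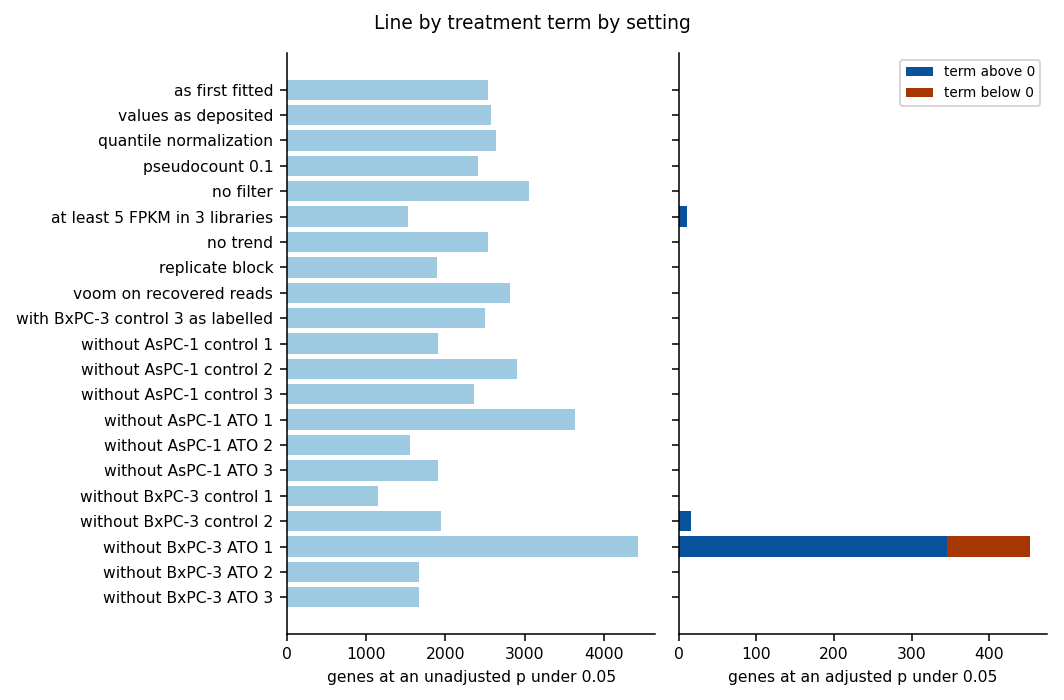
Number of genes at an unadjusted p under 0.05 (left) and at an adjusted p under 0.05 (right) for the line by treatment term in limma, for the fit as first made and its alternatives. Calls occur in 3 settings, with 452 genes without BxPC-3 ATO replicate 1 and 11 with a filter of at least 5 FPKM. The third is the fit without BxPC-3 control replicate 2, which holds 1 BxPC-3 control library.

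The gene with the smallest p of a term above 0 was ENSG00000235613, with an inferred length of 1693 bases. AsPC-1 had 1.02, 0.926 and 0.909 rescaled FPKM in control tumors and 2.84, 2.46 and 2.70 under ATO. BxPC-3 had 2.40 and 1.59 in control replicates 1 and 2 and 0.865, 0.430 and 0.748 under ATO. AsPC-1 was below BxPC-3 in every control library counted and above it in every ATO library. The line difference was -0.60 (SE 0.16, limma adjusted p = 0.0115) in control and 1.13 (SE 0.15, limma adjusted p = 0.000555) under ATO. The term was 1.74 (SE 0.22, limma adjusted p = 0.0822), and 1.60 with the library labelled BxPC-3 control 3 as labelled (limma adjusted p = 0.0719). It passed in 2 of 19 alternatives, with adjusted p in limma from 0.0196 to 0.400.

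The smallest p of a term below 0 belonged to ENSG00000272482, with an inferred length of 345 bases and few reads in AsPC-1. AsPC-1 had 2.01, 1.25 and 0.669 rescaled FPKM in control tumors and 0.558, 0.191 and 0.402 under ATO, with 1 to 3 inferred reads in each ATO library. BxPC-3 control replicates 1 and 2 had 4.54 and 6.32 FPKM, and the BxPC-3 ATO libraries 14.7, 28.6 and 26.8. The library labelled BxPC-3 control 3 had 0.316 FPKM, within the AsPC-1 range. With that library left out, the gene separated the lines without overlap in control and by more under ATO. Its line difference was -1.50 (SE 0.30) in control and -4.09 (SE 0.26, limma adjusted p = 1.95e-05) under ATO. The term was -2.59 (SE 0.41, limma adjusted p = 0.0822), and -3.35 with the library labelled BxPC-3 control 3 as labelled (limma adjusted p = 0.161). It passed in 2 of 20 alternatives, with adjusted p in limma from 0.0192 to 0.400.

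The most abundant transcripts took a larger share of the reads in every AsPC-1 ATO library than in any BxPC-3 ATO library. The 20 most abundant genes, ranked by mean share over the 12 libraries and thus partly by the ATO libraries, held 34.4%, 38.7% and 37.6% of the inferred reads in AsPC-1 ATO and 19.2%, 12.7% and 12.3% in BxPC-3 ATO. The means were 36.9% ± 2.23 and 14.8% ± 3.88 (SD, n = 3 each), and the groups did not overlap. The difference of 22.1 percentage points gave p = 0.1 in an exact permutation test, two-sided, the smallest that 3 against 3 libraries can give. In control tumors the share was 20.6% ± 2.44 in AsPC-1 (SD, n = 3) and 24.9% and 16.8% in BxPC-3 replicates 1 and 2, a difference of -0.26 points (exact permutation p = 0.9, n = 3 and 2). As labelled, with 30.9% in the library labelled BxPC-3 control 3, it was -3.60 points (exact permutation p = 0.5, n = 3 each).

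**Figure D5:**
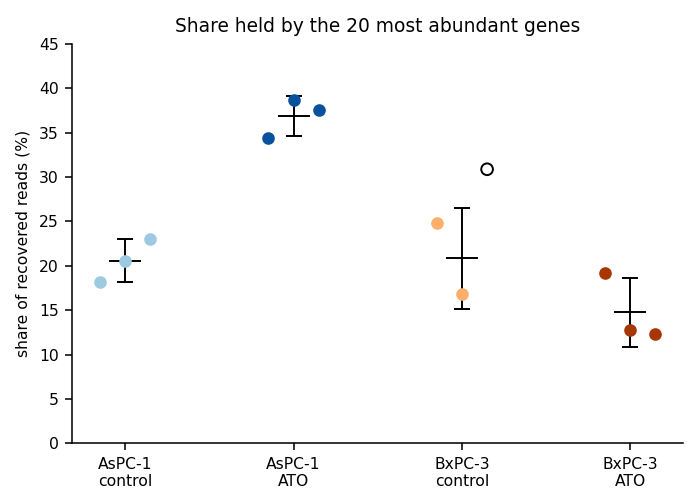
Share of inferred reads (percent) held by the 20 most abundant genes in each library by group; points are libraries, bars are mean and SD, and the open circle is the library labelled BxPC-3 control 3, left out of mean and SD. The AsPC-1 ATO libraries, at 34.4% to 38.7%, lie above all others.

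Gene by gene, 18 of these 20 were called higher in AsPC-1 under ATO, 1 was called higher in BxPC-3 and 1 did not pass. Because the ATO libraries helped to rank the genes, this count is a description, and the 161 genes at 100 FPKM or more split 56 to 56. In control tumors 3 were called, 2 toward AsPC-1 and 1 toward BxPC-3, where 46% of all genes were called. The median difference over the 20 genes was 1.65 log2 units under ATO, with a range of -1.29 to 2.55, and 0.067 in control, with a range of -0.60 to 2.04. The term had an unadjusted p under 0.05 in 16 of the 20, beside 15.4% of all genes, and 0 passed the adjustment. A ranking by the 5 control libraries alone, which uses no ATO value, was added after the data were seen and shared 19 of the 20 genes. Of its 20 genes, 19 were called toward AsPC-1 and 0 toward BxPC-3 under ATO in limma, beside 29.1% and 29.4% of all genes. Their share differed by 22.5 points between the lines under ATO (exact permutation p = 0.1, n = 3 each) and by 0.20 points in control (exact permutation p = 0.9, n = 3 and 2). The inferred lengths of these genes were 297 to 22767 bases. Over the whole table, 53 of 177 genes at 100 FPKM or more had a term at an unadjusted p under 0.05, or 29.9%, against 12.5% of 4560 genes under 2 FPKM. The term was above 0 in 30 of the 53. The median term of the 177 genes was -0.449, toward BxPC-3, and that of the 4560 genes was 0.063. The shift of the 20 genes toward AsPC-1 was thus not that of abundant genes in general.

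Genes of the cell cycle were examined through lists of human identifiers for the phases G1, S and G2M, in which cells grow, copy their DNA, and prepare for and pass through division. The source marks a phase by pairs of genes, and each list holds the identifiers that stand first in pairs of 1 phase only. Of 42 tested G2M genes, 24 were called under ATO, 15 toward AsPC-1 and 9 toward BxPC-3, which is 57.1% beside the 58.5% of all genes. In control 19 of the 42 were called, 13 and 6, or 45.2% beside 46% of all genes. The median G2M difference was 0.22 under ATO and 0.26 in control. Of 27 tested S genes, 16 (59.3%) were called under ATO, 10 toward AsPC-1 and 6 toward BxPC-3, and 17 (63.0%) in control. Of 21 tested G1 genes, 13 were called under ATO, or 61.9% beside 58.5% of all genes. They were 4 toward AsPC-1 and 9 toward BxPC-3, and the median over the 21 was -0.73. In control 8 of the 21 were called, or 38.1% beside 46% of all genes. These were 5 toward AsPC-1 and 3 toward BxPC-3, with a median over the 21 of 0.043. The term had an unadjusted p under 0.05 in 4 of 21 G1, 1 of 27 S and 4 of 42 G2M genes, and none passed the adjustment. The shares, 19.0%, 3.70% and 9.52%, stand beside 15.4% of all genes.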

How the data were processed

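Total RNA of tumors went into a SMARTer mRNA library kit, per the labels' protocols. The labels name mouse as the organism. The submitters' processing notes name hg38, mm10 and GRCm38 without a role for any of them; aligner, counter, annotation and the handling of mouse reads: not given in the sources used here. For each line the authors deposited a table without a stated unit, read here as FPKM because of its steps, in which every gene is above 0 in at least 4 of 6 libraries. A space within 1 number was removed. Reads and gene lengths were inferred from the steps (Python 3.11.15; numpy 2.4.6; pandas 2.3.3), and 99.9% of the values of genes listed for both lines came out whole within 0.05 reads. A common multiple of a gene's reads and length cannot be seen in the steps.

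Libraries were rescaled by median ratio over the 12 libraries. Line differences were tested on log2(FPKM + 1) by limma 3.58.1 (moderated with a trend; R 4.3.3), genes of at least 1 FPKM in 3 libraries, Benjamini-Hochberg adjustment over all genes and a threshold of 0.05. The ATO difference used the 6 ATO libraries; the control difference and the line by treatment term used 11 libraries. Alternatives were the deposited scale, quantile normalization, a pseudocount of 0.1, no filter, a filter of at least 5 FPKM, no trend, a replicate block, at least 2-fold, voom on inferred reads (at least 1 CPM in 3 libraries), 1 model of 11 libraries, the 5 control libraries alone, the library labelled BxPC-3 control 3 as labelled, and leaving out each library. The scripts were tested on simulated data. The exact permutation tests of single values were two-sided.

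The members, the classes and the lists were chosen with earlier results of these data known. The rule for named genes needed symbols. In its place the gene with the largest called difference in each direction under ATO is given, among genes without overlap between the groups. The gene with the smallest p of the term in each direction is given too. The 31 symbol lists, cell type markers included, were not used here. Cell cycle lists came from the human marker pairs in scran 1.30.0. The share of the 20 most abundant genes and the alternatives for it and for the classes were added after the data were seen.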

Additional observations from a re-analysis of the deposited data

How the results depend on the processing

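The count of line differences under ATO, 9097 as first fitted, was 4962 with at least 5 FPKM in 3 libraries, which tested fewer genes, and 4818 with at least a 2-fold difference, which only removes calls; over the fits without 1 library it ranged from 6359 to 8401. The control count of 7600 was 4575 and 3768 in the same settings, 5320 to 7961 without 1 library, and 0 with the library labelled BxPC-3 control 3 as labelled. The line by treatment term, 0 as first fitted, was 11 with at least 5 FPKM, and 0 to 452 without 1 library, with calls without BxPC-3 control replicate 2 or BxPC-3 ATO replicate 1. It was 0 with at least 5 FPKM and the library labelled BxPC-3 control 3 as labelled. With a replicate block the ATO count was 7516, the control count 6737 and the term count 0. Deviations of same-numbered ATO libraries of the lines correlated across genes at -0.403, -0.271 and -0.0060, so the numbers were not taken to pair them. Genes that appeared numbered 641 as first fitted, 361 with at least 5 FPKM, 1427 with BxPC-3 control replicate 3 as labelled, and 371 to 1016 without 1 library. Those that widened numbered 114, then 317 with a pseudocount of 0.1, 587 with voom, 0 as labelled and 66 to 215 without 1 library. Those that narrowed numbered 45, then 141 with a pseudocount of 0.1, 290 with voom, 0 as labelled and 24 to 65 without 1 library. Those that vanished numbered 204, then 114 with at least 5 FPKM, 360 with voom, 0 as labelled and 133 to 305 without 1 library. Those that turned sign numbered 28, then 11 with at least 5 FPKM, 12 with voom, 0 as labelled and 4 to 102 without 1 library. Beyond what fewer genes, fewer libraries or the smaller pseudocount imply, the cause was not tested. The difference in share of the 20 most abundant genes was 20.9 to 24.4 points over its alternatives. The sign of each of the 4 genes given by identifier, and of that share difference, was the same in every alternative run. The alternatives reuse libraries that chose the 4 genes as extremes, so a change of sign was unlikely. The split of calls depended on the scaling: under ATO it was 4526 toward AsPC-1 and 4571 toward BxPC-3 as first fitted, and 5375 and 3684 as deposited. Without BxPC-3 ATO replicate 3 it was 3740 and 2619. There the filter of 3 libraries left out genes on only in BxPC-3, so this split does not test stability. In control the split was 3788 and 3812, and 2495 and 2080 with at least 5 FPKM. The median term over all genes was -0.044 as first fitted and 0.094 as deposited.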
